A study of Mus musculus with 89 samples.

Results

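The Kcnq1 imprinted domain of distal mouse chromosome 7 was followed by 8 genes, chosen by symbol: Kcnq1, Kcnq1ot1, Cdkn1c, Phlda2, Slc22a18, Ascl2, Cd81 and Tssc4. All 8 were found among the 54146 genes of the RNA-seq tables, and 7 had enough reads to be tested. The libraries came from mouse embryonic stem cells (ESCs) in which the endogenous Esrrb gene was knocked out and an Esrrb transgene is kept on by doxycycline (Dox), called EKOiE cells. Every group therefore lacked endogenous Esrrb function, the controls included. Control cells (+E+N) received Dox at 1 µg/ml, and −E cells were taken 2 days after Dox withdrawal. The −N cells were EKOiE NrKO cells, in which Nr5a2 was disrupted in the exon that encodes its DNA-binding domain, kept on Dox, and −E−N cells were EKOiE NrKO cells 2 days after Dox withdrawal. Each state was measured in 2 libraries in FCS/LIF, a serum medium, and in 3 libraries in 2i/LIF, a medium with inhibitors that block the Erk and Gsk3 pathways. NrKO cells were derived as clones and the labels do not name the clone, so an effect of Nr5a2 loss and one of the clone cannot be told apart. FCS/LIF and 2i/LIF libraries were also separate sets, so the medium and the culture set cannot be told apart. The study describes the replicates as independent experiments, and p-values measure the spread between them.

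An imprinted domain holds genes that are expressed mainly from the copy inherited from 1 parent. In this domain the switch is the promoter of Kcnq1ot1, which lies inside Kcnq1 and is methylated on the maternal copy only. On the paternal copy it is unmethylated and drives Kcnq1ot1, a long noncoding RNA that runs antisense to Kcnq1 and is needed for silencing of the neighbouring genes on that copy, with the help of Polycomb complexes and the G9a histone methyltransferase. The protein-coding genes are expressed from the maternal copy, some of them, such as Ascl2, Cd81 and Tssc4, being imprinted mainly in the placenta. Cdkn1c encodes a cyclin-dependent kinase inhibitor (p57) that restrains growth, Phlda2 a pleckstrin homology protein that limits placental size, Slc22a18 an organic cation transporter-like protein, Ascl2 a transcription factor required for the spongiotrophoblast, Cd81 a tetraspanin of the cell surface, and Kcnq1 a voltage-gated potassium channel. The RNA-seq tables sum both copies of each gene, and hence carry no information on which parental copy the RNA came from.

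In the mm10 annotation (GENCODE vM21) the 8 genes span 536.3 kb, chr7:142966829-143503150. From the centromeric side the order is Ascl2, Cd81, Tssc4, Kcnq1, Kcnq1ot1, Cdkn1c, Slc22a18 and Phlda2. Kcnq1ot1 is annotated as 1 antisense transcript of 93092 bases on the minus strand (chr7:143203458-143296549), wholly within Kcnq1 (chr7:143106362-143427042, plus strand). The Cdkn1c, Slc22a18 and Phlda2 start sites lie 164.5, 177.2 and 206.6 kb on the telomeric side of the Kcnq1ot1 start, and those of Ascl2, Cd81 and Tssc4 lie on the other side, at -327.3, -243.8 and -227.3 kb. Tssc4 lies within Trpm5 on the opposite strand, but Trpm5 held only 2 to 14 counts in any library. Cd81 shares 948 bases with the opposite-strand R74862, which held 35 to 184 counts.

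Promoter sequence was taken from RefSeq (GRCm38.p6, the same build), where 6 of the 8 genes had an entry. The 250 bases before the start are shown for Kcnq1ot1, whose promoter is the switch of the domain, and for Ascl2, which fell in −E in FCS/LIF and rose in −E−N in 2i/LIF. Capitals mark CCAAT, the box bound by the factor NF-Y, and CAAGG, the core that lies within both the Esrrb motif TCAAGGTCA and the Nr5a2 motif TCAAGGCCA. All were searched on both strands. The motifs were picked with the sequences in view.
Kcnq1ot1, chr7:143296548-143296797, minus strand: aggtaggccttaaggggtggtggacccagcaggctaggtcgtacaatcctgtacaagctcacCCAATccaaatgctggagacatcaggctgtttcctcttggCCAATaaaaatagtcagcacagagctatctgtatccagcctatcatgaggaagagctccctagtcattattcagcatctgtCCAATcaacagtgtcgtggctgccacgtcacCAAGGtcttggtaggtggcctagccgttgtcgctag
Ascl2, chr7:142969265-142969514, minus strand: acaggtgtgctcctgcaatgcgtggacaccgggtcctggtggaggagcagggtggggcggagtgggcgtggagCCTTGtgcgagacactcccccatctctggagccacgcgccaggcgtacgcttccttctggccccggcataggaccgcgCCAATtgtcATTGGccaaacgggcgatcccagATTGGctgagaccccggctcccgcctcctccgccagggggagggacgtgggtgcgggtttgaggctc
Both windows held 3 CCAAT matches, against 2.79% of the 32851 promoter windows in the table with 3 or more and 33.8% with at least 1. As the motif was picked with the sequences in view, these shares do not measure how unusual the matches are. Of the 6 windows 4 held CCAAT, Phlda2 and Tssc4 being the others, while those of Slc22a18 and Cd81 did not. CAAGG was found once in both windows shown. It was in 4 of the 6 windows, Slc22a18 and Tssc4 being the others, and in 46.0% of all windows. Neither TCAAGGTCA nor TCAAGGCCA was in any of the 6 windows, and these were held by 0.387% and 0.511% of all windows. The Ascl2 window had 19 CG pairs and the Kcnq1ot1 window 5, with a median of 6 over all windows. Bases after the start were not counted, so the value for Kcnq1ot1 does not describe the whole of its promoter region.

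Depth was 36514172 to 45443379 counts per library in FCS/LIF and 26653035 to 32526534 in 2i/LIF. Esrrb RNA in FCS/LIF lay between 271 and 353 CPM (counts scaled by the library's normalized total) in +E+N and between 65.1 and 74.2 in −E, in which edgeR's quasi-likelihood test called it lower (log2 fold change -2.18 ± 0.13 SE). In 2i/LIF it lay between 515 and 609 CPM in +E+N and between 380 and 441 in −E. This difference was not called (-0.46 ± 0.16, edgeR adjusted p = 0.116). In −E−N it was called lower, at 104 to 171 CPM (-1.97 ± 0.16). Gene counts do not separate transgene RNA from RNA of the disrupted endogenous gene, so the RNA level alone does not measure how far Esrrb was lost. The paper reports from ChIP-seq that binding of Esrrb to DNA was lost after Dox withdrawal in this medium. Nr5a2 RNA did not track the NrKO label in 2i/LIF (63.9 to 78.4 CPM in −N and 61.8 to 80.2 in +E+N), and a disruption of part of a coding sequence need not remove its RNA, so its level is no check of that label. All 8 pluripotency markers passed the filter in both media, with a summed level of 2540 to 2654 TPM (transcript abundance scaled by length and library total) in +E+N in FCS/LIF and 2514 to 2782 in 2i/LIF. The third −E−N library in 2i/LIF stood apart from the other 2 in several genes of the domain, and the results that it moved most are given with and without it.

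The genes of the domain differed widely in level. On the TPM scale, which is per transcript length, the +E+N cells in FCS/LIF had 135 ± 17.3 TPM of Cd81 (SD, n = 2), 87.2 ± 8.51 of Cdkn1c, 77.8 ± 14.6 of Phlda2, 27.9 ± 1.12 of Tssc4, 23.7 ± 0.559 of Ascl2, 1.03 ± 0.113 of Slc22a18 and 0.22 ± 0.0566 of Kcnq1ot1. Cdkn1c and Phlda2 were within their spread of each other, while the other neighbours in this order lay farther apart than their SDs. In 2i/LIF the order changed, with Cd81 at 96.7 ± 2.05 TPM (SD, n = 3), Tssc4 at 32.8 ± 0.377, Phlda2 at 11.8 ± 2.88, then Cdkn1c at 1.597 ± 0.61, Slc22a18 at 1.59 ± 0.576, Ascl2 at 1.04 ± 0.386 and Kcnq1ot1 at 0.103 ± 0.0252. Cdkn1c, Slc22a18 and Ascl2 could not be ranked there beyond their spread. The low TPM of Kcnq1ot1 goes with its annotated length of 93092 bases, since it held 155 to 1644 counts per library. Kcnq1 held 0 counts in 11 of 20 libraries and at most 3 in any library, and was not tested.

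**Figure D1:**
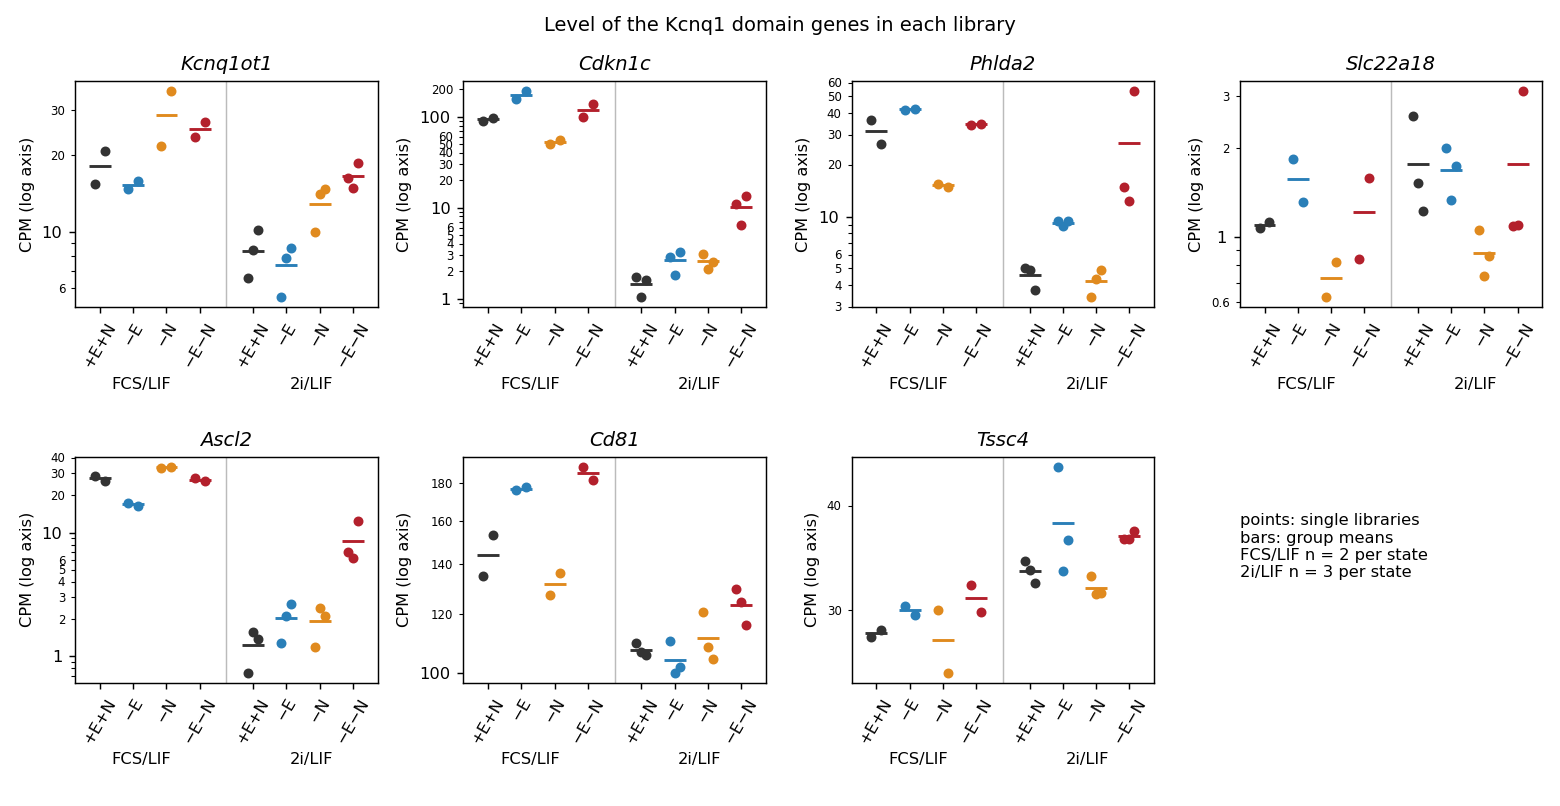
Normalized counts (CPM, log axis, a separate scale for each gene) of the 7 tested genes in every library, by state and medium, with a bar at each group mean. Cdkn1c, Phlda2, Ascl2 and Kcnq1ot1 sit higher in the FCS/LIF control libraries than in those of 2i/LIF, and the 3 −E−N libraries in 2i/LIF lie above the +E+N libraries for those 4 genes.

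Between media, control cells differed in Cdkn1c, Ascl2, Phlda2 and Kcnq1ot1, with more of each in FCS/LIF. In +E+N cells 4 of the 7 tested genes were called between FCS/LIF and 2i/LIF, all higher in FCS/LIF, beside 34.7% of the 16147 genes tested that were called in either direction (17.5% higher and 17.2% lower). Cdkn1c was 63.4-fold higher in FCS/LIF (log2 5.99 ± 0.27 SE, edgeR adjusted p = 2.46e-11), with 89.6 and 97.3 CPM in the 2 FCS/LIF libraries and 1.73, 1.04 and 1.602 in the 3 of 2i/LIF. Ascl2 was 22.4-fold higher (4.48 ± 0.32), Phlda2 6.9-fold (2.79 ± 0.42) and Kcnq1ot1 2.16-fold (1.11 ± 0.23, edgeR adjusted p = 0.000548). The call on Kcnq1ot1 was lost without the second +E+N library of FCS/LIF and on both TPM scales, with log2 values of 0.14 to 1.31 over all alternatives. Cd81 was 1.34-fold higher in FCS/LIF (adjusted p = 9.62e-05, edgeR), which is under the limit of 1.5 set for a call, and Slc22a18 (-0.69 ± 0.44) and Tssc4 (-0.25 ± 0.10) were not called. The summed level of 12 trophoblast markers was also higher in FCS/LIF, at 282 and 341 TPM against 57.5 to 69.5 in 2i/LIF, with Prl3d1 and Tpbpa at 0 counts in all 2i/LIF libraries. Of the 12, 7 were called higher in FCS/LIF, 2 (Eomes and Tead4) were called lower and 3 were not called. The part of these markers in the differences of the domain genes was not tested. In bulk libraries, a larger share of cells that express a gene and more RNA per cell cannot be told apart.

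Within FCS/LIF, loss of Esrrb raised Cdkn1c and lowered Ascl2, and no gene of the domain was called after the combined loss. Both −E calls ended in limma on log2(TPM + 1) and in the fit of all 20 libraries. In −E cells 2 of 7 were called, 1 in each direction, against 5.76% of 15636 genes (3.23% higher and 2.53% lower). In −N cells 1 of 7 was called, Phlda2, which was lower, against 0.173% of genes (0.0767% higher and 0.0959% lower). In −E−N cells 0 of 7 were called by edgeR or by DESeq2, against 18.8% of genes (12.4% higher and 6.4% lower), with 1 (Cd81) at an unadjusted p under 0.05. The log2 change of Cd81 was 0.35 ± 0.07 SE (edgeR adjusted p = 0.00336), which is under the 1.5-fold limit for a call. Over all 15636 genes, 8405 had an unadjusted edgeR p under 0.05 there. Within the NrKO line, between −E−N and −N, 2 of 7 were called, Cdkn1c and Phlda2, both higher in −E−N (10.1% of genes, 6.57% higher and 3.49% lower). Between −E−N and −E 1 of 7 was called, Ascl2, higher in −E−N (5.05% of genes, 3.52% higher and 1.53% lower).

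Within 2i/LIF the calls were confined to the comparisons with −E−N cells when replicate numbers were left out of the fit. In −E−N 4 of 7 were called higher than in +E+N, namely Kcnq1ot1, Cdkn1c, Phlda2 and Ascl2, against 18.6% of 14355 genes called in either direction (9.06% higher and 9.56% lower). In −E cells 0 of 7 were called by edgeR or by DESeq2 (1.55% of genes, 0.439% higher and 1.11% lower), with 2 at an unadjusted p under 0.05. In −N cells 0 of 7 were called by either tool (3.65% of genes, 1.61% higher and 2.04% lower), with 3 at an unadjusted p under 0.05. Over all 14355 genes, 2917 in −E and 3594 in −N had an unadjusted edgeR p under 0.05. Between −E−N and −N 3 of 7 were called (6.76% of genes, 3.39% higher and 3.36% lower), Cdkn1c, Phlda2 and Ascl2, and between −E−N and −E 3 of 7 (13.1% of genes, 6.9% higher and 6.21% lower), Kcnq1ot1, Cdkn1c and Ascl2. All of these were higher in −E−N. In all of these comparisons but the one of −E−N with +E+N, same-numbered libraries moved together around their group means. The shares above come from the fit without these numbers, and the shares with them as a block were not determined. With the number as a block Cdkn1c was also called in −E (0.86, edgeR adjusted p = 0.00831), Cdkn1c (0.84, 0.00692) and Kcnq1ot1 (0.62, 0.00304) in −N, and Phlda2 between −E−N and −E (1.37, 0.00778).

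**Figure D2:**
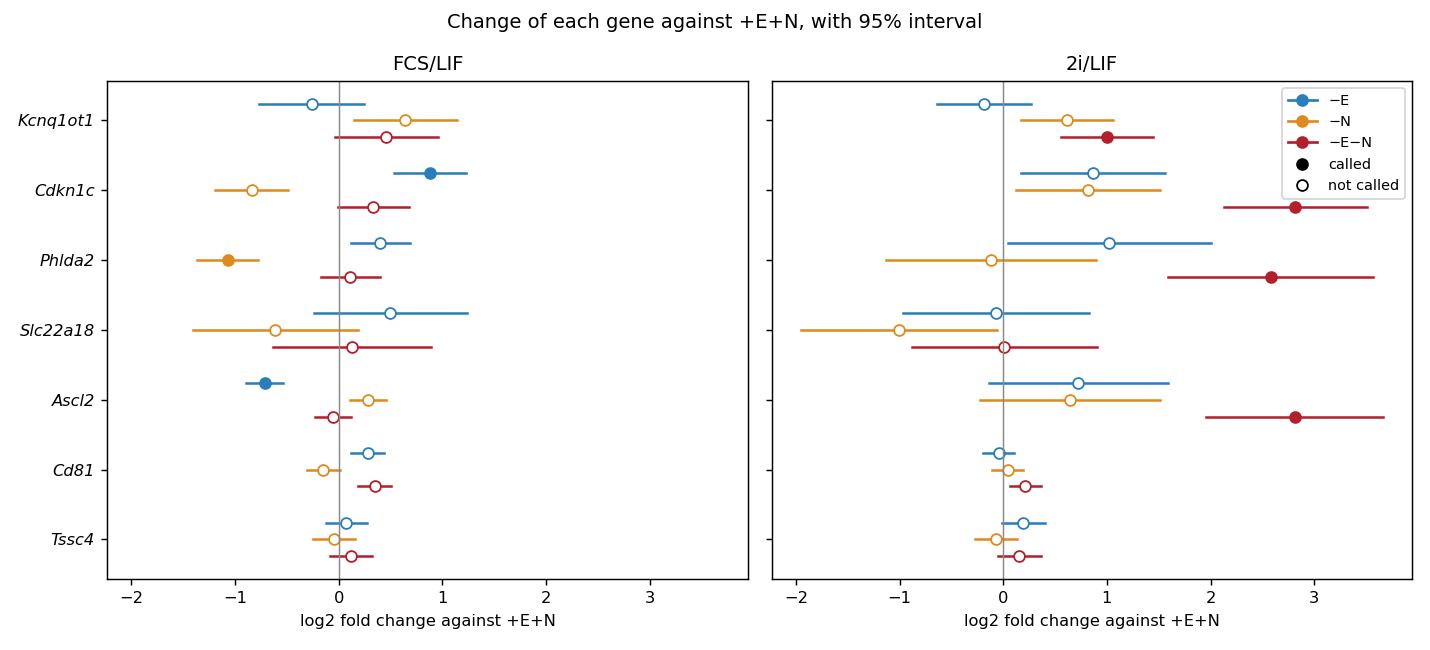
Log2 fold change against +E+N of the 7 tested genes (points) with the 95% interval of the fit (lines), in FCS/LIF (left) and 2i/LIF (right), in colours by state. Filled points were called at an adjusted p under 0.01 and a fold change over 1.5. The −E−N points of Cdkn1c, Phlda2 and Ascl2 lie near 0 in FCS/LIF and at 2.82, 2.58 and 2.81 in 2i/LIF.

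Kcnq1ot1, the noncoding RNA of the paternal copy, had more RNA in NrKO than in EKOiE libraries, a difference called in 2i/LIF without Dox, and there with Dox only when the replicate number was a block. In FCS/LIF its level was 15.45 and 20.7 CPM in +E+N libraries, 14.7 and 15.8 in those of −E, 21.6 and 35.6 in those of −N and 23.4 and 27.0 in those of −E−N. Both NrKO groups thus lay above both EKOiE groups, without overlap. The log2 difference of −N from +E+N was 0.64 ± 0.22 SE (edgeR adjusted p = 0.186) and that of −E−N from −E 0.72 ± 0.22 (edgeR adjusted p = 0.049), neither being called. The latter was called by DESeq2 (adjusted p = 0.00214). In 2i/LIF the level was 6.58, 8.44 and 10.1 CPM in +E+N libraries, 5.54, 7.91 and 8.66 in those of −E, 9.95, 14.1 and 14.7 in those of −N and 16.2, 14.9 and 18.6 in those of −E−N. The lowest −N library lay just below the highest +E+N library, while −E−N lay above all other groups. Between −E−N and −E the difference was 2.27-fold (log2 1.18 ± 0.21, edgeR adjusted p = 0.00102), and between −E−N and +E+N it was 2.00-fold (1.00 ± 0.21, edgeR adjusted p = 0.00198). Both of these calls were lost in limma on log2(TPM + 1) and log2(TPM + 0.1), where the TPM of Kcnq1ot1 is smaller than or close to the added constant. Dox withdrawal itself gave no call, with -0.26 ± 0.22 and -0.18 ± 0.21 in EKOiE cells and -0.18 ± 0.22 and 0.38 ± 0.20 in NrKO cells, in FCS/LIF and 2i/LIF respectively.

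Cdkn1c had more RNA after Dox withdrawal in each line and medium, a change called in all but EKOiE cells in 2i/LIF. There it was called only when the replicate number was a block. In FCS/LIF it had 89.6 and 97.3 CPM in +E+N libraries, 158 and 190.5 in those of −E, 49.6 and 56.1 in those of −N and 99.1 and 139 in those of −E−N. The 4 groups did not overlap, −N being lowest and −E highest. The change from +E+N to −E was 1.84-fold (log2 0.88 ± 0.15 SE, edgeR adjusted p = 0.00464), and from −N to −E−N 2.25-fold (1.17 ± 0.15, edgeR adjusted p = 0.000796). The first of these calls was lost, at log2 values of 0.74 to 1.02, without any 1 of the 4 libraries of +E+N and −E. The −N cells had 1.79-fold less Cdkn1c than +E+N (log2 -0.84 ± 0.15), which was not called by edgeR (adjusted p = 0.036) and was called by DESeq2 (adjusted p = 1.32e-07). In 2i/LIF the level was 1.73, 1.04 and 1.602 CPM in +E+N libraries, 2.90, 1.84 and 3.26 in those of −E, 3.12, 2.14 and 2.51 in those of −N and 10.9, 6.43 and 13.3 in those of −E−N. All −E−N libraries lay above all others, and the change was 7.04-fold from +E+N (log2 2.82 ± 0.32, edgeR adjusted p = 2.38e-05) and 4-fold from −N (2.00 ± 0.30, edgeR adjusted p = 0.000868). The −E−N cells in 2i/LIF still had less Cdkn1c than any FCS/LIF library.

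Phlda2 resembled Cdkn1c in FCS/LIF. It had 36.4 and 26.5 CPM in +E+N libraries, 41.7 and 42.5 in those of −E, 15.4 and 14.97 in those of −N and 34.2 and 34.7 in those of −E−N. The −N libraries were the lowest of all and −E the highest. In −N it fell by 1.07 ± 0.13 on the log2 scale (edgeR adjusted p = 0.00959), close to the limit of 0.01, and this call was lost on leaving out any 1 of the 8 libraries except the second +E+N library, with log2 values of -1.28 to -0.82. It was also lost with DESeq2 size factors, with limma on both TPM scales and in the fit of all 20 libraries. From −N to −E−N it was 2.27-fold higher (1.18 ± 0.13, edgeR adjusted p = 0.000326). In 2i/LIF it had 5.04, 4.91 and 3.73 CPM in +E+N libraries, 9.44, 8.81 and 9.49 in those of −E, 3.41, 4.36 and 4.87 in those of −N and 14.9, 12.3 and 53.6 in those of −E−N. The third −E−N library was thus well above the other 2, with 1584 counts against 453 and 347. Phlda2 was 5.98-fold higher in −E−N with all libraries, against +E+N (log2 2.58 ± 0.46, edgeR adjusted p = 0.000676), and 1.58 on the log2 scale without that library (edgeR adjusted p = 5.9e-05). Against −N it was 6.49-fold higher (2.70 ± 0.46) with all libraries and 1.70 on the log2 scale without it, and was no longer called without the second −N library. Against −E the log2 difference was 1.56 ± 0.43 (edgeR adjusted p = 0.0157) and 0.56 without the third −E−N library, and it was called without either the first or the second −E−N library. The 3 −E libraries in 2i/LIF lay above those of +E+N without overlap, at a log2 difference of 1.02 ± 0.45 that was not called (edgeR adjusted p = 0.224) and that was called without the third −E−N library.

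Slc22a18, with 20 to 92 counts per library, was called in no comparison. In FCS/LIF it had 1.07 and 1.12 CPM in +E+N libraries, 1.83 and 1.31 in those of −E, 0.626 and 0.822 in those of −N and 0.842 and 1.58 in those of −E−N. In 2i/LIF it had 2.57, 1.52 and 1.22 CPM in +E+N libraries, 2.00, 1.33 and 1.73 in those of −E, 1.05, 0.739 and 0.862 in those of −N and 1.09, 1.10 and 3.11 in those of −E−N. The −N libraries were thus below those of +E+N without overlap in both media, at log2 differences of -0.61 ± 0.35 (edgeR adjusted p = 0.443) and -1.01 ± 0.44 (edgeR adjusted p = 0.171). The highest of the 20 libraries was the third −E−N library of 2i/LIF, which was also high in Phlda2, and without it the log2 difference between −E−N and +E+N in 2i/LIF went from 0.01 to -0.69. The 95% interval for −N in FCS/LIF reached from -1.41 to 0.18, which includes both no change and a fall of more than 1.5-fold, and in 2i/LIF it reached from -1.95 to -0.06, before adjustment for the number of genes tested.

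Ascl2 went the other way from Cdkn1c and Phlda2 in FCS/LIF. It had 28.6 and 26.0 CPM in +E+N libraries, 17.3 and 16.4 in those of −E, 33.5 and 33.8 in those of −N and 27.4 and 25.9 in those of −E−N. The −E libraries were the lowest and the −N libraries the highest. In −E it fell by 0.71 ± 0.08 on the log2 scale (edgeR adjusted p = 0.000495), a call lost without the second −E library, where the log2 values over all 8 omissions were -0.78 to -0.64. The −E−N cells had 1.58-fold more Ascl2 than −E (0.66 ± 0.08, edgeR adjusted p = 0.00116), which was not called without either −E library or without the second −E−N library (log2 0.59 to 0.68). In 2i/LIF the level was 0.739, 1.56 and 1.39 CPM in +E+N libraries, 1.29, 2.12 and 2.67 in those of −E, 1.198, 2.44 and 2.13 in those of −N and 6.90, 6.25 and 12.4 in those of −E−N. The first 3 states overlapped, while every −E−N library lay above them. Ascl2 was 7.03-fold higher in −E−N than in +E+N (log2 2.81 ± 0.39, edgeR adjusted p = 0.000121), 4.5-fold higher than in −N (2.17 ± 0.38, edgeR adjusted p = 0.00201) and 4.25-fold higher than in −E (2.09 ± 0.38, edgeR adjusted p = 0.00123).

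Cd81 and Tssc4 varied least. Cd81 had 135 and 153 CPM in +E+N libraries, 176 and 178 in those of −E, 127 and 136 in those of −N and 189 and 182 in those of −E−N in FCS/LIF. Dox withdrawal went with more Cd81 in both lines, by 0.28 ± 0.07 (edgeR adjusted p = 0.0228) and 0.49 ± 0.07 on the log2 scale (edgeR adjusted p = 0.00105), both under the 1.5-fold limit, the latter value being 0.59 and 0.60 and called with limma on log2(TPM + 1) and log2(TPM + 0.1). In 2i/LIF the 12 libraries lay between 100.1 and 129.8 CPM, with −E−N (116 to 130) above +E+N (106 to 110) by 0.21 ± 0.07. Tssc4 lay between 25.3 and 32.2 CPM over the FCS/LIF libraries and between 31.4 and 44.5 over those of 2i/LIF, and its changes against +E+N were between -0.07 and 0.19 on the log2 scale.

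The states could be tested for departure from the sum of the single changes. No gene of the domain was called for this interaction, by edgeR or DESeq2, in FCS/LIF (0 of 7, against 0.032% of genes, with 2 at an unadjusted p under 0.05) or in 2i/LIF (0 of 7, against 0.307% of genes, with 4 at an unadjusted p under 0.05). Over all genes, 1384 of 15636 in FCS/LIF and 1962 of 14355 in 2i/LIF had an unadjusted edgeR p under 0.05. In FCS/LIF the largest departure was that of Phlda2, at 0.78 ± 0.18 (edgeR adjusted p = 0.247). In 2i/LIF Phlda2, Ascl2 and Cdkn1c departed by 1.68 ± 0.63, 1.45 ± 0.55 and 1.14 ± 0.44 (edgeR adjusted p = 0.252 to 0.259), with 95% intervals of 0.30 to 3.05, 0.26 to 2.63 and 0.19 to 2.08. Without the third −E−N library these were 0.68, 1.06 and 0.89, so that Phlda2 no longer had the largest of the 3.

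The response to the combined loss was compared between the media in the fit of all 20 libraries. It differed for 3 of 7 genes, all with less change in FCS/LIF, against 13.2% of 16147 genes called in either direction (7.3% higher and 5.93% lower). The FCS/LIF change minus that in 2i/LIF was -2.84 ± 0.43 for Ascl2 (edgeR adjusted p = 0.00018), -2.45 ± 0.37 for Cdkn1c (edgeR adjusted p = 0.000152) and -2.43 ± 0.59 for Phlda2 (edgeR adjusted p = 0.00617). The value for Phlda2 was -1.47 without the third −E−N library of 2i/LIF, and its call was lost in 6 of the 20 omissions, those of each +E+N and each −E−N library in FCS/LIF and of +E+N replicates 2 and 3 in 2i/LIF. For Kcnq1ot1 the difference was -0.51 ± 0.33 (edgeR adjusted p = 0.289). For the response to −E 0 of 7 differed by edgeR or DESeq2 (1.06% of genes, 0.588% higher and 0.471% lower), with 2 at an unadjusted p under 0.05, and for the response to −N 0 of 7 by edgeR and 1, Cdkn1c, by DESeq2 (0.743% of genes by edgeR, 0.409% higher and 0.334% lower), with 1 at an unadjusted p under 0.05. Over all 16147 genes, 2834 for −E and 2476 for −N had an unadjusted edgeR p under 0.05. Cdkn1c was lower in −N in FCS/LIF and higher in 2i/LIF, a difference of -1.64 ± 0.40 (edgeR adjusted p = 0.0359). That fit was also run with a block for the replicate number, although it also holds the FCS/LIF libraries. The response to −E was then called different for Ascl2 (-1.42, edgeR adjusted p = 0.00498). The response to −N was called different for Cdkn1c (-1.66, edgeR adjusted p = 8.34e-05). The shares of all genes called with the block were not determined.

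Several marker genes of other cell types moved with these states. In FCS/LIF the summed level of the 12 trophoblast markers was 282 and 341 TPM in +E+N libraries, 417 and 569 in those of −E, 585 and 826 in those of −N and 1228 and 1875 in those of −E−N. Of the 12, 1 (Gata3) was called higher after loss of Esrrb alone, none in −N by edgeR, and 9 after the combined loss, where 3.23%, 0.0767% and 12.4% of all genes were called higher. In 2i/LIF it was 57.5 to 69.5 TPM in +E+N libraries, 48.2 to 59.9 in those of −E, 108 to 113 in those of −N and 226, 224 and 358 in those of −E−N, the highest being the third library. In −N 3 of the 8 markers tested were called higher, the keratins Krt7, Krt8 and Krt18 (1.61% of all genes). In 2i/LIF 5 of the 8 were called higher in −E−N, these keratins, Cdx2 and Gata3, and 2, Eomes and Tead4, lower (9.06% and 9.56% of all genes), while Prl3d1 and Tpbpa were at 0 counts. The summed level of 8 pluripotency markers was 1371 and 1567 TPM in −E−N in FCS/LIF and 1287 to 1727 in 2i/LIF, and 8 and 6 of them were called lower than in +E+N. Primitive endoderm markers, 9 in all, summed to 42.5 and 58.5 TPM in +E+N and 94.1 and 112 in −E−N in FCS/LIF, and to 8.16 to 10.2 TPM in +E+N and 7.44 to 9.56 in −E−N in 2i/LIF. In −E−N 2 of the 9 tested in FCS/LIF were called higher (Col4a1 and Dab2) and 1 lower (Lama1). Of the 7 tested in 2i/LIF, 2 were higher (Foxa2 and Pdgfra) and 2 lower (Gata4 and Lama1). Mesoderm markers summed to 13.6 to 15.6 TPM in +E+N and 40.5 to 55.9 in −E−N in FCS/LIF, and to 11.52 to 13.7 and 6.01 to 11.7 in 2i/LIF. Only 4 of these 8 markers were tested in each medium. In −E−N Hand1 and T were called higher in FCS/LIF, while in 2i/LIF T was higher and Gsc and Kdr lower. Hand1 is also among the 12 trophoblast markers, so it enters the sums and calls of both lists. Neural markers, 7 in all, summed to 87.6 to 88.2 TPM in +E+N and 100.8 to 118 in −E−N in FCS/LIF, and to 30.1 to 40.2 and 13.2 to 16.3 in 2i/LIF. In −E−N in FCS/LIF, where 6 were tested, Nes, Sox1 and Zic1 were called higher and Pax6 lower. In 2i/LIF, where 4 were tested, Pax6 was higher and Tubb3 lower. The part of these marker lists in the changes of the Kcnq1 domain was not tested.

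Around the domain, 17 neighbouring genes on either side of it or between its genes on chromosome 7 were followed, 14 tested in FCS/LIF and 11 in 2i/LIF. The neighbours with the largest changes in 2i/LIF in −N and −E−N were H19 and Igf2, which belong to a separate imprinted domain with its own control region. In 2i/LIF H19, a noncoding RNA, had a mean of 1.56 CPM in +E+N and 3.90 in −E but 249 in −N and 897 in −E−N, that is, log2 changes against +E+N of 7.30 ± 0.35 and 9.17 ± 0.37. In +E+N, −N and −E−N Igf2, a growth factor, went from 0.794 CPM to 64.3 and 182 (6.32 ± 0.23 and 7.84 ± 0.24). In FCS/LIF, where both were already present in +E+N at 207 and 322 CPM, the log2 change of H19 was 2.20 ± 0.22 for −N and 3.03 ± 0.23 for −E−N. Igf2 was called for −E−N (1.55 ± 0.23) and not for −N (0.86 ± 0.23). In −E neither was called in either medium, with 0.25 to 1.32.

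Closer to the domain, Cars, a cysteinyl-tRNA synthetase gene just beyond Phlda2 and Nap1l4, fell by 0.74 ± 0.12 in −E and 1.16 ± 0.12 in −E−N in FCS/LIF and by 0.88 ± 0.11 in −E−N in 2i/LIF. Nap1l4, a histone chaperone gene between Phlda2 and Cars, was not called, with changes against +E+N of 0.03 to 0.19 on the log2 scale. Tspan32, between Ascl2 and Cd81, rose in −E−N in 2i/LIF (1.10 ± 0.24) and was at -0.49 in FCS/LIF, not called. Mrpl23, a mitochondrial ribosomal protein gene beside H19, rose in −E−N in 2i/LIF (0.89 ± 0.11) and was at -0.10 in FCS/LIF, not called. In −E−N in FCS/LIF Lsp1 and Osbpl5 rose by 2.08 ± 0.25 and 1.07 ± 0.25, and Tnfrsf22 fell by 0.95 ± 0.12. In 2i/LIF, where Lsp1 was not tested, Osbpl5 was at 0.92 and Tnfrsf22 at 0.38 in −E−N, neither called. Tnfrsf23, Dhcr7, Nadsyn1, Th and Tnnt3 were called in none of the comparisons against +E+N within a medium, with changes between -0.68 (Tnfrsf23 in −N in FCS/LIF) and 1.36 (Tnfrsf23 in −E−N in 2i/LIF). Th and Tnnt3 were tested in FCS/LIF only. Ins2, Trpm5 and Tnfrsf26 were not tested in either medium. Between media 8 of the 14 neighbours tested were called higher in FCS/LIF +E+N cells (H19, Igf2, Lsp1, Mrpl23, Osbpl5, Th, Tnfrsf23 and Tnnt3) and 2 lower (Dhcr7 and Nadsyn1), beside 17.5% and 17.2% of all genes.

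**Figure D3:**
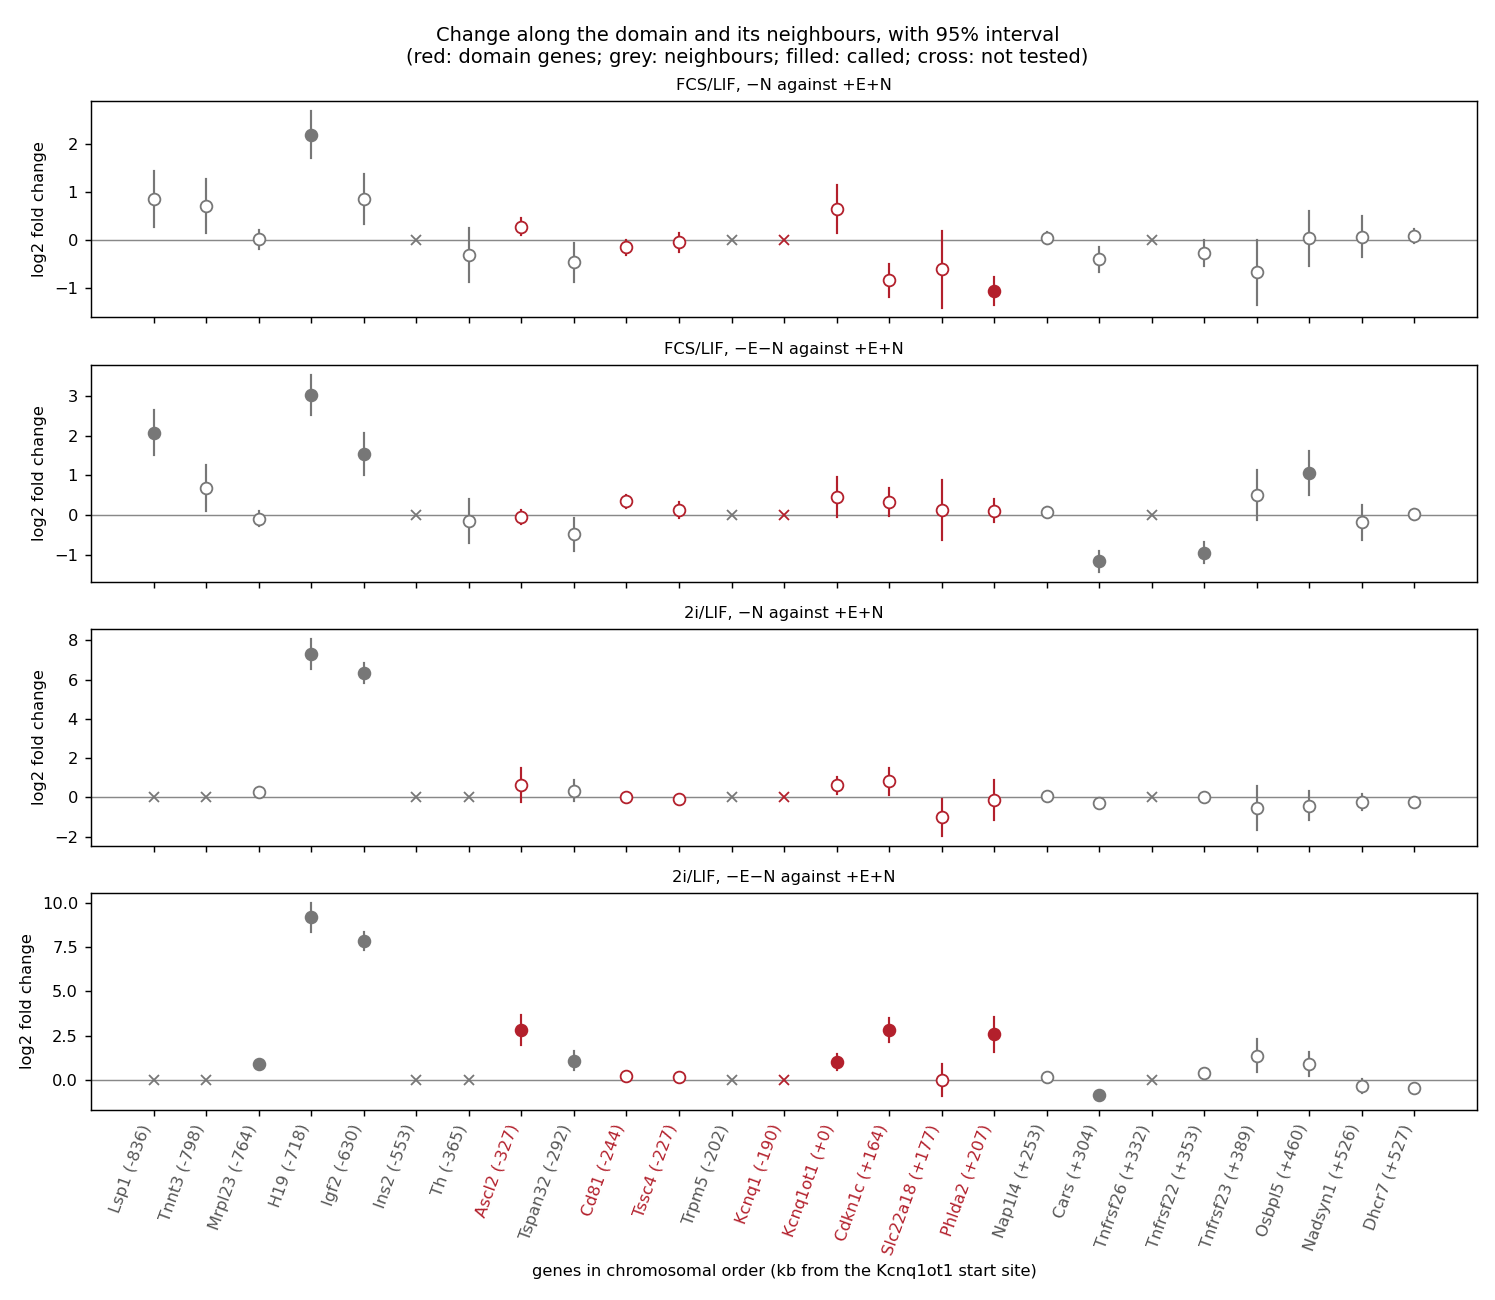
Log2 fold change of −N and −E−N against +E+N (points, with the 95% interval of the fit as lines) in FCS/LIF and 2i/LIF for the domain genes (red) and their neighbours (grey) in chromosomal order, with the distance in kb from the Kcnq1ot1 start in brackets and a separate scale in each panel. Filled points were called and crosses mark genes not tested. In 2i/LIF H19 and Igf2 lie at 7.30 and 6.32 in −N, above every gene of the Kcnq1 domain.

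The genes that read or write the imprint were also followed. Of 15 genes of the silencing machinery (Polycomb subunits, G9a and its partner, RNA-binding partners and H3K27 demethylases), all tested, none was called in −E or −N in either medium by edgeR. Over all genes 5.76%, 0.173% and 18.8% were called in −E, −N and −E−N in FCS/LIF, and 1.55%, 3.65% and 18.6% in 2i/LIF. In −E−N Pcgf5, a Polycomb ring finger subunit, rose by 1.42 ± 0.10 in FCS/LIF, while Jarid2 and Eed, subunits of Polycomb repressive complexes, fell by 1.14 ± 0.06 and 0.68 ± 0.08. In 2i/LIF Kdm6b fell by 0.79 ± 0.14 and the other 14 were not called.

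Of 18 genes of imprint protection and DNA methylation, all tested, Zfp57, which binds methylated imprinting control regions and protects them, fell by 1.56 ± 0.05 in −E and 2.07 ± 0.05 in −E−N in FCS/LIF and by 0.73 ± 0.12 in −E−N in 2i/LIF. Tet1 and Tet2, enzymes that oxidise methylated cytosine, fell in FCS/LIF by 0.63 ± 0.11 and 1.30 ± 0.08 in −E and by 1.73 ± 0.11 and 2.20 ± 0.09 in −E−N, and in 2i/LIF by 1.32 ± 0.16 and 1.46 ± 0.18 in −E−N. In FCS/LIF −E−N cells Dnmt3a and Trim28, the corepressor that Zfp57 recruits, also fell (0.88 ± 0.05 and 0.64 ± 0.13), while Tet3 rose (0.77 ± 0.08). In 2i/LIF the de novo methylation genes moved up, Dnmt3a and Dnmt3l in −E (0.61 ± 0.11 and 1.58 ± 0.21), Dnmt3b in −N (0.79 ± 0.12), and Dnmt3b and Dnmt3l in −E−N (1.23 ± 0.12 and 1.79 ± 0.21). Dppa3, a maternal factor that guards methylation in the zygote, rose by 2.08 ± 0.35 in −N and 3.43 ± 0.36 in −E−N in 2i/LIF, and Uhrf1 fell by 0.64 ± 0.12 in −E−N. The rest of the list was not called in these comparisons, 15, 18 and 12 of 18 in FCS/LIF and 16, 16 and 11 of 18 in 2i/LIF for −E, −N and −E−N. Over all genes, the shares called were 5.76%, 0.173% and 18.8% in FCS/LIF and 1.55%, 3.65% and 18.6% in 2i/LIF. DNA methylation itself was not analysed here.

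Relatives of the domain genes, 21 in all, were tested in part, 17 in FCS/LIF and 14 in 2i/LIF. In −E−N 9 of 17 rose in FCS/LIF and none fell, with a median log2 change of 0.96 against 0 over all genes tested, of which 12.4% were called higher and 6.4% lower. In 2i/LIF 4 of 14 rose and 2 fell, with a median of -0.18 against 0.01 over all genes, of which 9.06% and 9.56% were called. Cdkn1a (p21), from the same inhibitor family as Cdkn1c, rose by 1.50 ± 0.18 in FCS/LIF and 0.86 ± 0.14 in 2i/LIF, and Cdkn1b (p27) fell by 0.73 ± 0.14 in 2i/LIF. Cdkn2a, Cdkn2b and Cdkn2c, inhibitors of the other class, rose by 0.82 to 1.14 in FCS/LIF. Phlda1 and Phlda3, the relatives of Phlda2, rose in −E−N in both media (0.97 ± 0.13 and 0.96 ± 0.16 in FCS/LIF, 1.15 ± 0.23 and 2.34 ± 0.17 in 2i/LIF). Kcnq3 and Kcnq5, channel genes related to the unexpressed Kcnq1, rose in FCS/LIF in −E (1.59 ± 0.27 and 1.81 ± 0.35) and −E−N (2.16 ± 0.27 and 2.40 ± 0.33). Of the tetraspanins and their partners, Cd82 rose in −E−N in both media (1.99 ± 0.22 and 2.54 ± 0.33), and Ptgfrn, a binding partner of Cd81, fell in all 3 states in 2i/LIF (0.76 ± 0.10, 0.67 ± 0.10 and 1.49 ± 0.10). In −E and −N in FCS/LIF, Cdkn1a rose (0.92 ± 0.18) and Cdkn1b fell (0.63 ± 0.09) in −E and Ifitm3 fell (0.68 ± 0.06) in −N.

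The genes most like each member were sought over the 20 libraries after each medium was centred on its mean, among 11737 genes, as a description only, since the libraries share states and cell lines. The closest to Kcnq1ot1 were Mlxip (r = 0.911), C430049B03Rik (0.909) and Tcaf1 (0.902). The closest to Cdkn1c were Usp17le (0.939), Ccno (0.937) and Gm21761 (0.93), and to Phlda2 Flywch2 (0.89), Vash2 (0.861) and Sh3gl3 (0.859). Ascl2 was most like Cryl1 (0.942), Urgcp (0.935) and its neighbour Mrpl23 (0.925). Slc22a18 had Sppl2a (0.744), F11r (0.74) and the imprinted Usp29 (0.718), Cd81 had Abcb1b (0.924), Cachd1 (0.904) and Syvn1 (0.899), and Tssc4 had Spcs2 (0.861), Nmb (0.854) and Cyb561d2 (0.815). No gene of the domain was among the closest 3 of another.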

How the data were processed

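RNA-seq of 20 libraries was used. The 69 ChIP-seq samples of the series were not analysed here. Reads were paired-end and from stranded poly-A libraries. Alignment by the authors used STAR and mm10, and RSEM then gave the expected counts that were deposited, raw and whole in the files. TPM values from RSEM were deposited too. The strand setting of RSEM is not given in the sources used here. The tables hold 54238 rows, of which 92 are spike-in rows with 0 counts, and 54079 of the 54146 genes were matched to GENCODE vM21 by ID.

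Counts were tested with edgeR 4.0.16 (TMM, quasi-likelihood) in R 4.3.3, for genes that reached 20 counts in every replicate of some state, the 4 states of a medium in 1 fit and the comparisons between media in a fit of all 20 libraries. A gene was called at a Benjamini-Hochberg adjusted p under 0.01 and a fold change over 1.5, without the fold limit for the interaction and for differences between media in a response. CPM were scaled by TMM over all 20 libraries. Depth was 36514172 to 45443379 counts (FCS/LIF) and 26653035 to 32526534 (2i/LIF), and replicates of each group differed by more than sampling noise. The tests were checked on simulated data with known changes. Alternatives were DESeq2 1.42.0, its size factors, no filter (at least 1 count), the replicate number as a block, limma 3.58.1 on TPM (log2 after adding 1 or 0.1), all 20 libraries in 1 fit and leaving out each library. The deviations of same-numbered libraries from their group means correlated at over 0.1 for every pair in 2i/LIF in 4 of the 5 comparisons of states (17 of 18 pairs over all), which counts as pairing there, with -0.0126 for 1 pair of −E−N and +E+N. FCS/LIF has only 2 numbers (0.0361 to 0.36). The pairing comes from the numbers in the labels.

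All 8 genes of the domain were named, every neighbour tested, and in the lists other than cell type markers the genes called against +E+N. For the marker lists not every call was named, so a marker or state left unnamed may still have been called. Genes most alike are the 3 with the highest Pearson r on log2 CPM (prior count 2) among genes with a mean count of at least 100. The members and lists were chosen with earlier results of these data known.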

Additional observations from a re-analysis of the deposited data

Results flagged for a closer look

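The response to the combined loss of Esrrb and Nr5a2 differed between the media for 3 genes of the domain, by a test of the difference itself in the fit of all 20 libraries. For Ascl2 the change in FCS/LIF minus that in 2i/LIF was -2.84 on the log2 scale, with -0.05 within FCS/LIF and 2.81 within 2i/LIF. For Cdkn1c it was -2.45, from 0.33 and 2.82. For Phlda2 it was -2.43, from 0.11 and 2.58, and -1.47 without the third −E−N library of 2i/LIF. In +E+N cells these genes were 22.4-fold, 63.4-fold and 6.9-fold higher in FCS/LIF, so the 2i/LIF cells started from a lower level, and in −E−N cells of 2i/LIF their means were 8.54, 10.2 and 26.9 CPM against 26.7, 119 and 34.4 CPM in FCS/LIF. Without the third −E−N library of 2i/LIF these 2i/LIF means were 6.58, 8.69 and 13.6 CPM. The part of the starting level, of the culture set and of the trophoblast markers in these differences was not tested.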

How the results depend on the processing

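Of 2156 log2 values of the 7 tested genes under the alternatives, 2085 stayed on their side of the threshold, 41 calls were lost, 30 were gained, and none turned in direction while called. The number of genes called changed by over 1.5 times as follows, the cause being not tested. Shares over all genes were determined for the main fit only, so the counts under the alternatives have no share beside them. In −E in FCS/LIF it went from 2 to 0 with limma on log2(TPM + 1) and to 0 in the fit of all 20 libraries. In −N in FCS/LIF it went from 1 to 2 with DESeq2, 0 with DESeq2 size factors, 3 without the filter, 0 with limma on either TPM scale and 0 in the fit of all libraries. Between −E−N and −N in FCS/LIF it went from 2 to 1 in the fit of all libraries, and between −E−N and −E from 1 to 2 with DESeq2, 2 without the filter and 0 in the fit of all libraries. The interaction in FCS/LIF went from 0 to 1 without the filter. The difference between media went from 0 to 1 for −E without the filter and 1 with limma on log2(TPM + 1), and for −N from 0 to 1 with DESeq2 and 2 without the filter. Smaller moves came with limma on both TPM scales, from 2 to 3 between −E−N and −N in FCS/LIF (Cd81 gained), from 4 to 3 for −E−N in 2i/LIF and for +E+N between media and from 3 to 2 between −E−N and −E in 2i/LIF (Kcnq1ot1 lost in each), and from 3 to 2 for the response to −E−N between media (Phlda2 lost). Between −E−N and −E in 2i/LIF the count went from 3 to 4 (Phlda2 gained) with DESeq2, without the filter and in the fit of all libraries.

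With the replicate number as a block, the count went from 1 to 2 for −N in FCS/LIF, from 1 to 2 between −E−N and −E in FCS/LIF, from 0 to 1 for −E and from 0 to 2 for −N in 2i/LIF, from 3 to 4 between −E−N and −E in 2i/LIF, and from 0 to 1 for the difference between media in −E and in −N. In FCS/LIF the libraries share only a number. The block changed no other count.

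Leaving out 1 library at a time gave 0 to 2 genes for −E, 0 to 1 for −N, 0 for −E−N, 2 for −E−N against −N, 0 to 2 for −E−N against −E and 0 for the interaction in FCS/LIF. In 2i/LIF it gave 0 to 1 for −E, 0 for −N, 4 for −E−N, 2 to 3 for −E−N against −N, 3 to 4 for −E−N against −E and 0 for the interaction. Between media it gave 3 to 4 for +E+N and 0, 0 and 2 to 3 for the responses to −E, −N and −E−N. Where 1 library was left in a group, it was assumed to vary like the others. Slc22a18, with 20 to 92 counts, and Kcnq1, with at most 3, are limited by depth.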
